A study of Mus musculus with 48 samples.

Results

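Skeletal muscle sarcomere and fibre genes were followed through RNA-seq of mouse mammary gland: 39 genes of 55487 in the table, taken by symbol, using the row with the highest mean where a symbol repeats. All 39 were found, and all 39 passed the filter on low values. Samples were thoracic (second) mammary glands in 16 groups of 3 libraries, 48 in all. Values are TPM, a relative transcript abundance with the same total in every library, already divided by transcript length. Every mouse carried MMTV-rtTA, a doxycycline-dependent activator behind the mouse mammary tumour virus promoter, which is active mainly in mammary epithelium. It was combined with tet-op-Esr1 (estrogen receptor alpha, the Esr1 model) or with tet-op-CYP19A1 (aromatase, which makes estrogens, the CYP19A1 model). In each model there were glands with no transgene induction at 12, 18 and 24 months of age. Induced glands had 1 week of induction at 12 or 18 months, 6 or 12 months of induction at 24 months, or 18 months of induction at 30 months. No uninduced 30-month group and no group without the tet-op transgene were analysed here. Titles number 3 biological replicates per group and do not name the mice, so the spread below is the spread between libraries.

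The sarcomere is the contractile unit of striated muscle: myosin thick filaments pull on actin thin filaments that are anchored at Z-discs and switched on by calcium through troponin and tropomyosin. Fast and slow fibres use different genes for many of the same parts, among them the myosin heavy chains, the troponin subunits and the myosin light chains. The mouse thoracic mammary fat pad lies over the muscles of the chest wall and beside the thin skin muscle, and mammary epithelium and fat do not build sarcomeres, so these transcripts serve as a gauge of muscle RNA in the gland sample. In a bulk sample, fewer muscle fibres and less muscle RNA per fibre cannot be told apart.

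These promoters are shown because their genes moved together across the libraries and because each holds a motif known from muscle genes. They are the 250 bases before the RefSeq start sites in GRCm38.p6, 5′ to 3′ on the strand of the gene, with matched motifs in capitals. Acta1, skeletal alpha-actin, has chr8:123894776-123895025 on the minus strand, with an E-box, a CArG box and TATAAA. Myh4, the type IIB fast myosin heavy chain, has chr11:67237562-67237811 on the plus strand, with 3 TATAAA matches (1 read on the other strand), a CArG box and an E-box. Ttn, the giant spring protein titin, has chr2:76982548-76982797 on the minus strand, and Xirp2, an actin-binding repeat protein, has chr2:67445752-67446001 on the plus strand, each with a MEF2 match.
Acta1: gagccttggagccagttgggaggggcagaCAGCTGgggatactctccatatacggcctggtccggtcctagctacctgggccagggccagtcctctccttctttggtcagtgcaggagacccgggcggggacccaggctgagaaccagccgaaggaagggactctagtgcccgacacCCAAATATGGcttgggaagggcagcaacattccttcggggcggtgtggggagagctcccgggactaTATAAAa
Myh4: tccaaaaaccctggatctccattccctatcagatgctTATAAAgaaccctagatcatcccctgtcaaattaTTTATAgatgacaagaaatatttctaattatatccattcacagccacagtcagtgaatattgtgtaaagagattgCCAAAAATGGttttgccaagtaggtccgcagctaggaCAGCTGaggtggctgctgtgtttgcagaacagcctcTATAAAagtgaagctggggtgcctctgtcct
Ttn: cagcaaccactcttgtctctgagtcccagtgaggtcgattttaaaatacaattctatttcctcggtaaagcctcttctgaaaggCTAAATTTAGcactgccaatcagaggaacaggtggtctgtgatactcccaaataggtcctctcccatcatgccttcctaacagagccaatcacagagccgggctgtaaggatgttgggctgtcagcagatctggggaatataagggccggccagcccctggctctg
Xirp2: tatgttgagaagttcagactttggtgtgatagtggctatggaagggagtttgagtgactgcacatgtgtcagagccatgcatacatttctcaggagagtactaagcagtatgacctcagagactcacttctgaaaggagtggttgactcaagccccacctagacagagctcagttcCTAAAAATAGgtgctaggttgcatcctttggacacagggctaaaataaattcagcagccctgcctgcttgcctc

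RefSeq promoters were matched for 32 of the 39 genes, and both strands of these 250 bases were searched for exact matches. Motifs were the E-box CAGCTG, a form bound by myogenic factors such as MyoD, the CArG box of serum response factor, the MEF2 motif and TATAAA, and in the window nearest each gene's GENCODE start no match of a motif overlapped a match of another. A gene was counted if any of its listed start sites had a match, for these genes as for all. An E-box lay in 16 of the 32 (50.0%, against 14.72% of 27025 genes in the promoter table). A CArG box lay in 4 (12.5% against 1.62%), in Acta1 from 73 to 64 bases before the start and in Myh4 from 104 to 95, and also in Myl3 and Ldb3. MEF2 matched in 3 (9.38% against 0.59%), Ttn, Xirp2 and Myoz2, while TATAAA matched in 6 (18.75% against 14.33%). These are matches of letters, and binding was not measured.

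The mammary label held in every library: Epcam, an epithelial adhesion gene, ran from 10.6 to 160.5 TPM, and Adipoq, the adipocyte hormone adiponectin, from 184.2 to 984.6 TPM. The transgene target Esr1 had 8.88 to 16.3 TPM in the 9 uninduced libraries of the Esr1 model and 6.39 to 25.9 TPM in its 15 induced libraries, so these ranges overlapped. Reads of ribosomal RNA that fall on CT010467.1, AY036118 and Lars2 took over 10% of TPM in 9 libraries and at most 4.54% in the other 39; the 9 include 2 of the 3 uninduced CYP19A1 libraries at 12 months and all 3 with 1 week of induction at that age. Columns are named by 1 scheme at 12 and 18 months and by another at 24 and 30 months, so the naming boundary and age cannot be told apart.

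Together the 39 genes took from 0.031% to 6.49% of all TPM in a library, with a median of 2.35%. Uninduced Esr1 glands had 2.49%, 0.327% and 2.03% at 12 months, 0.634%, 1.21% and 6.49% at 18 months, and 2.94%, 5.02% and 1.27% at 24 months. After 1 week of induction the Esr1 glands had 0.933%, 0.069% and 0.172% at 12 months and 1.66%, 1.70% and 1.58% at 18 months. The induced 12-month libraries thus lay far apart, and the 3 induced 18-month libraries lay close together. With long induction the Esr1 glands had 2.84%, 2.34% and 2.55% (6 months), 3.70%, 1.38% and 1.92% (12 months) and 3.60%, 4.58% and 2.37% (18 months, at 30 months of age).

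CYP19A1 glands without induction had 0.705%, 0.096% and 0.143% at 12 months, 0.318%, 3.30% and 2.05% at 18 months, and 3.61%, 2.60% and 4.07% at 24 months. With 1 week of induction they had 1.16%, 0.792% and 0.031% at 12 months and 1.29%, 4.15% and 2.19% at 18 months. The 12- and 24-month uninduced groups did not overlap, while the 18-month group spanned the gap between them. With long induction the shares were 5.29%, 2.79% and 4.64% (6 months), 3.24%, 2.51% and 4.64% (12 months) and 3.93%, 3.47% and 3.28% (18 months). Across both models the 24 libraries of 24 and 30 months had 1.27% to 5.29%, and the 24 of 12 and 18 months 0.031% to 6.49%: every library under 1.27% came from the younger ages, as did the highest.

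**Figure D1:**
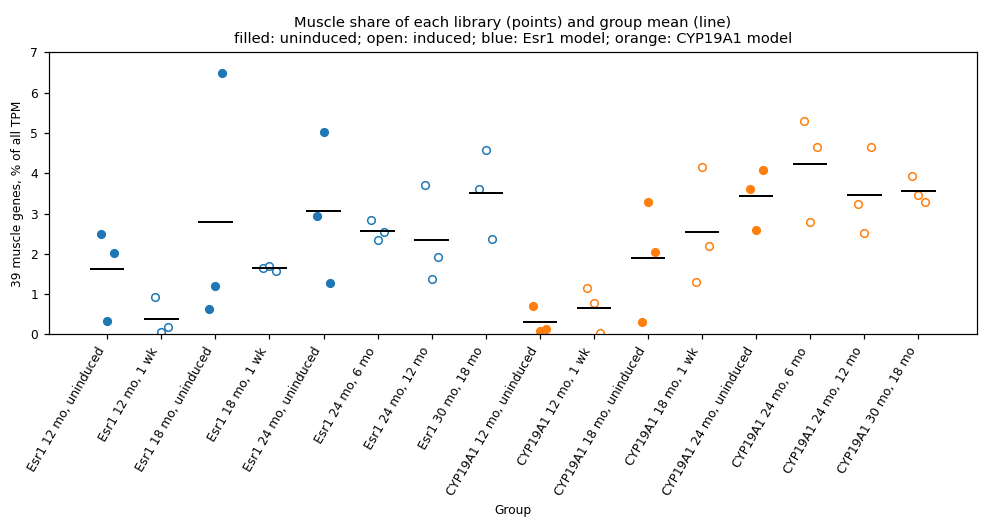
Share of all TPM taken by the 39 muscle genes (y axis, percent) in each of the 48 libraries, by group (x axis), with a line at the group mean. The uninduced CYP19A1 glands lie between 0.096% and 0.705% at 12 months and between 2.60% and 4.07% at 24 months, and a single 18-month Esr1 library reaches 6.49%.

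Acta1 had a median of 3089 TPM (48.6 to 8710.5) and was the highest of the 39 by median. Ckm, muscle creatine kinase, which regenerates ATP beside the myofibrils, came next with 2665 TPM (24.8 to 7776), followed by Tnnt3, fast troponin T, with 2223 TPM (22.6 to 6705). Myh4 had a median of 1894 TPM and Mylpf, the fast regulatory light chain, 1635 TPM. Fast troponin I (Tnni2) had a median of 1408 TPM, fast troponin C (Tnnc2) 1377 TPM and beta-tropomyosin (Tpm2) 1137 TPM. At the other end of the order stood the slow genes: the medians of Tnnt1, Myl2, Myh7, Tnnc1, Tnni1 and Myl3 were 16.6, 13.2, 5.22, 3.58, 3.37 and 2.26 TPM, the 6 lowest of the 39. The same CYP19A1 library, 12 months with 1 week of induction, replicate 3, was lowest for 36 of the 39 genes. The third uninduced Esr1 library at 18 months was highest for 24 genes, none of them slow, and the first Esr1 library of 30 months was highest for all 6 slow genes.

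**Figure D2:**
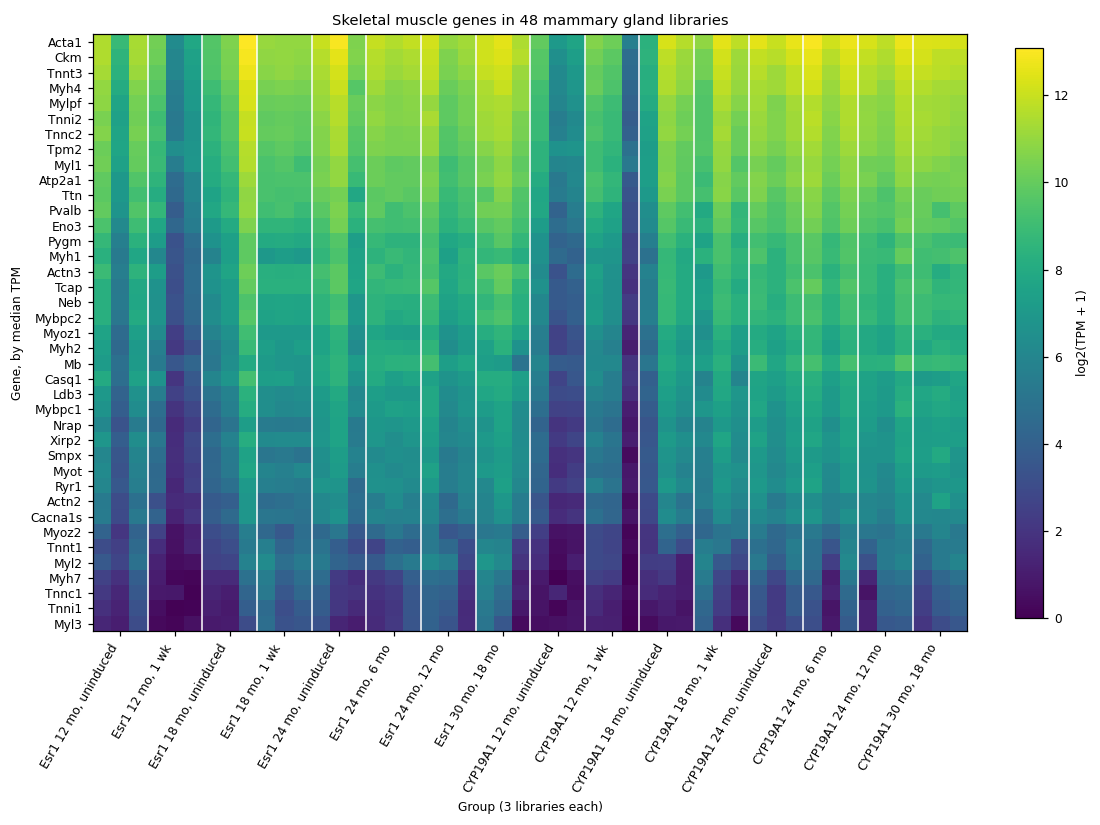
Level of each of the 39 genes (rows, ordered by median TPM) in the 48 libraries (columns, by group), as log2(TPM + 1). Whole columns are pale (high) or dark (low) together, and the 6 slow fibre genes form the darkest rows.

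Myosin heavy chains carried the fibre makeup. Myh4 ran from 19.4 to 5170.2 TPM (median 1894), Myh1, the type IIX fast chain, from 4.93 to 1006 TPM (median 347.0), Myh2, the type IIA fast chain, from 1.06 to 449.1 TPM (median 163.6), and Myh7, the slow type I chain, from 0 to 62.1 TPM (median 5.22). Of the TPM of these 4 genes, Myh4 took 61.8% to 87.5% (median 79.9%), Myh1 7.06% to 25.4%, Myh2 4.17% to 10.8% and Myh7 0% to 3.28%. Myh4 was the leading chain in all 48 libraries. The 3 fast chains lie side by side on chromosome 11 of GRCm38 (Myh2 at 67171027 to 67197517, Myh1 at 67200052 to 67224575 and Myh4 at 67238029 to 67260446, plus strand, GENCODE M21) and have very similar coding sequences, so how RSEM divided reads among them is uncertain. Myh7 lies elsewhere, on chromosome 14 (54970684 to 54994626, minus strand), beside the cardiac chain Myh6, whose highest level was 7.75 TPM.

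The 12 genes of the fast list varied less in proportion to Ckm than the 6 genes of the slow list did. The 12 fast genes comprise 3 myosin heavy chains, 3 troponin subunits, Mylpf (fast regulatory light chain), Mybpc2 (fast myosin-binding protein C), Actn3 (alpha-actinin of fast fibres), Atp2a1 (calcium pump of fast fibres), Pvalb (parvalbumin, a calcium buffer) and Casq1 (calsequestrin of the sarcoplasmic reticulum). The SD over libraries of log2(gene TPM / Ckm TPM) was 0.11 (Tnnc2) to 0.47 (Myh1) among these, with a median of 0.18, while Ckm itself had an SD of 1.83 on the log2 scale. Tnnc2 was 52.1% of Ckm in the median library and 42.4% to 64.5% over all 48. The widest ranges among the fast genes were those of Casq1 (2.49% to 13.5% of Ckm), Myh1 (5.57% to 24.9%) and Myh2 (3.20% to 10.2%). Slow genes had SDs of 0.98 (Tnnt1) to 1.76 (Myh7, over the 47 libraries above 0), with a median of 1.61. Myh7 had a median of 0.312% of Ckm and reached 3.22% in a single CYP19A1 library (18 months, 1 week of induction, replicate 1). These SDs also hold the counting error of the low slow genes, which TPM do not give.

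**Figure D3:**
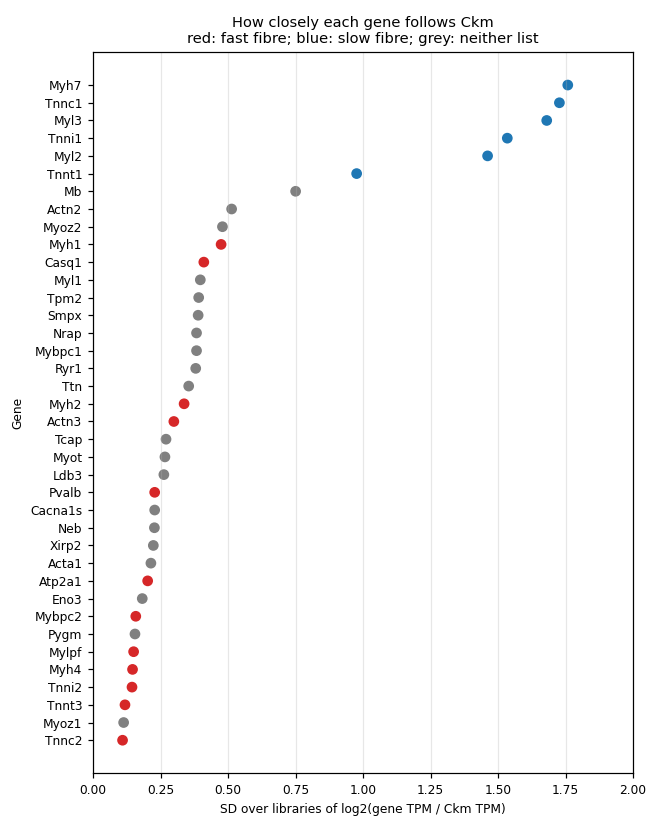
SD over the 48 libraries of log2(gene TPM / Ckm TPM) (x axis) for 38 genes (y axis). The 6 slow genes have the 6 largest values, from 0.98 to 1.76, followed by Mb at 0.75, and the 12 fast genes lie at or under 0.47.

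Among the 20 genes that are in neither fibre list, Myoz1, a Z-disc partner of calcineurin, followed Ckm most closely (SD 0.11), and Mb, myoglobin, the oxygen store of oxidative fibres, least (0.75). Mb was 7.97% of Ckm in the median library. It was 0.948% in the third Esr1 library of 30 months, where Mb had 30.5 TPM beside 3211 TPM of Ckm, and this library also had the lowest slow-gene level relative to the fast genes and 50.3% of TPM on ribosomal RNA reads. Other genes above 0.45 were Myoz2, the Z-disc protein of slow fibres and heart (0.48), and Actn2, the more widespread alpha-actinin (0.51). Mybpc1, the slow form of myosin-binding protein C, had 0.38. Myoz2 and Mybpc1 were not in the slow list, so the contrast of fast and slow genes holds for the listed genes only. Myl1 (fast essential light chain) and Tpm2 had their highest ratios in libraries with the least muscle: Myl1 was 154.2% of Ckm in the CYP19A1 library with 0.031% muscle TPM, against a median of 38.5%, and Tpm2 was 134.3% in the Esr1 library with 0.069%, against a median of 45.1%. How much of that comes from other cells that express these genes was not tested.

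The summed slow genes were 0.088% to 3.67% of the summed fast genes, with a median of 0.509%. The highest values were 3.67% in the first CYP19A1 library with 1 week of induction at 18 months and 3.16% in the first Esr1 library of the same age and induction. In the CYP19A1 group the other libraries had 0.310% and 0.175%, so the group mean rested on 1 library. All 3 Esr1 libraries with 1 week of induction at 18 months (3.16%, 1.01% and 1.71%) were above the 3 uninduced ones (0.501%, 0.297% and 0.491%). The level of slow genes thus varied between libraries with like amounts of fast RNA: at fast sums of 8020.3 to 8753 TPM, these 3 induced libraries had slow sums of 260.9, 88.0 and 137.3 TPM.

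**Figure D4:**
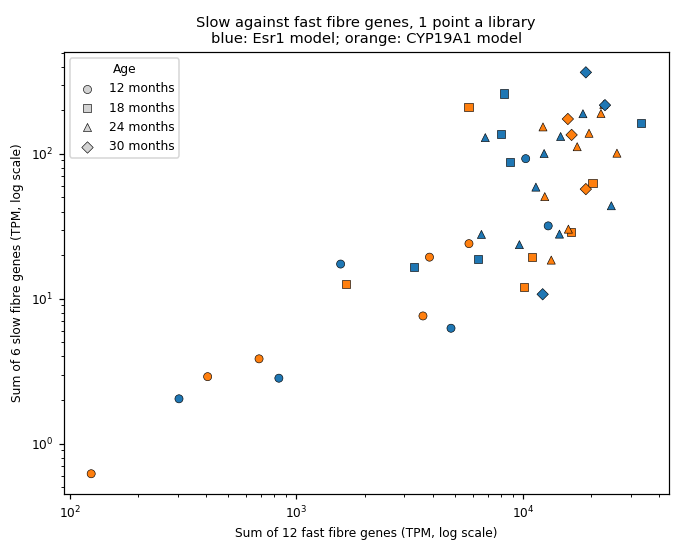
Summed TPM of the 6 slow genes (y axis, log scale) against that of the 12 fast genes (x axis, log scale), 1 point a library, with colour for the model and shape for age. Slow sums range from 0.62 to 365.2 TPM and scatter widely among libraries with like fast sums.

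Age in uninduced CYP19A1 glands was the comparison in which muscle genes passed the test. The 2 ages also differ in the scheme of column names, so age and that boundary cannot be told apart. Of the 39 genes, 35 were higher at 24 than at 12 months and 0 lower (limma, Benjamini-Hochberg adjusted p under 0.05 over 20209 genes). Of all tested genes 4.18% were called higher and 0.0643% lower (857 genes in all, 4.24%). The fitted change ran from 2.20 (Myl3) to 4.20 (Nrap) on the log2(TPM + 1) scale, with a median of 3.97, against 0.22 over all tested genes. All 12 fast genes rose and 2 of the 6 slow genes, Tnnt1 and Myl2. The other slow genes had smaller estimates that missed the threshold: Myh7 3.36 (adjusted p = 0.0871), Tnni1 2.64 (0.122), Myl3 2.20 (0.200) and Tnnc1 2.35 (0.236).

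Acta1 had 989.5, 134.5 and 199.0 TPM at 12 months and 5908, 4119 and 6398 TPM at 24 months, a log2 change of 4.17 (SE 1.00, 18.0-fold, limma adjusted p = 0.0103). Every 24-month library was above every 12-month one. Myh4 went from 563.0, 68.5 and 117.0 TPM to 2686, 2348 and 3505 TPM (log2 change 4.08, SE 1.03, adjusted p = 0.0139), and Ckm from 802.3, 92.3 and 161.9 TPM to 3725, 3253 and 4780 TPM (4.07, SE 1.02, adjusted p = 0.0137). Nrap, a nebulin-related anchoring protein, had the largest change, from 16.9, 2.94 and 3.63 TPM to 148.1, 90.3 and 147.1 TPM (4.20, SE 0.86, adjusted p = 0.00559). The smallest adjusted p was that of Myoz2 (3.71, SE 0.70, adjusted p = 0.0047).

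Slow genes started near 0. Myh7 had 0.91, 0.01 and 0.44 TPM at 12 months and 18.4, 5.91 and 21.3 TPM at 24 months, and Tnni1, slow troponin I, 0.61, 0.14 and 0.59 TPM against 9.90, 3.64 and 13.1 TPM. For each gene the 2 ages did not overlap in TPM, though neither gene passed the test. How many of all tested genes separate in this way was not counted. Myl2, the slow regulatory light chain, had 2.27, 0.25 and 1.14 TPM against 38.1, 13.7 and 39.03 TPM (3.79, SE 1.05, adjusted p = 0.0273), and Tnnt1, slow troponin T, 2.80, 0.37 and 0.64 TPM against 27.2, 19.9 and 45.4 TPM (3.88, SE 0.84, adjusted p = 0.00665). At these low levels the added 1 TPM shrinks the fitted change, so fast and slow changes are not on an equal footing.

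Tnni2 had 473.9, 46.5 and 73.1 TPM at 12 months and 2248, 1554 and 2418 TPM at 24 months. Ttn had 211.7, 42.96 and 59.03 TPM against 1491, 814.4 and 1338 TPM, and Mb 59.5, 13.2 and 12.1 TPM against 489.9, 214.1 and 393.2 TPM. Pvalb, the calcium buffer of fast fibres, had 232.6, 17.2 and 46.6 TPM against 1028, 700.4 and 1092 TPM. In TPM the first 12-month library was in all of them the highest of its group and stayed below the lowest 24-month library. That library had 67.2% of TPM on ribosomal RNA reads, which lowers its other TPM. Its median-of-ratios scaling factor was 0.326, against 1.039, 1.172 and 0.952 at 24 months. Dividing by these factors brings it closer to the 24-month libraries. Whether each gene still separates after such rescaling was not tested.

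Myh1 had 95.8, 21.8 and 16.5 TPM at 12 months and 684.7, 336.9 and 644.4 TPM at 24 months. Myh2 had 42.2, 5.33 and 8.08 TPM against 284.3, 171.7 and 268.3 TPM, again without overlap in TPM. Of the other genes that rose, the largest changes were those of Mybpc2 (4.15), Myh2 (4.13), Myoz1 (4.12), Neb (nebulin, the thin filament ruler, 4.10), Tnni2 (4.10) and Tcap (telethonin at the Z-disc, 4.10). Smpx, a small protein of striated muscle, changed by 4.03, Mybpc1 by 3.99, Actn3 by 3.98, and Myh1, Tnnt3 and Tnnc2 by 3.97 each. Calcium handling genes followed closely, with Atp2a1 at 4.05, Pvalb at 3.98, Ryr1, the calcium release channel, at 3.83, Casq1 at 3.78 and Cacna1s, the voltage sensor of the T-tubule, at 3.75. Energy genes lay in the same range: Pygm, muscle glycogen phosphorylase, changed by 3.98, Eno3, muscle enolase, by 3.98 and Mb by 3.95. Ttn rose by 3.83, and Tpm2 (3.39) and Myl1 (3.51) had the smallest changes among the 35.

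This call depended on how the libraries were scaled. It was 0 of 39 after rescaling by median-of-ratios factors (median change 3.56, all genes -0.004) and 18 of 39 after rescaling to protein-coding genes (median 3.74). Ribosomal RNA reads took 67.2%, 0.122% and 22.2% of TPM in the 12-month libraries and 0.072%, 0.206% and 15.6% in the 24-month ones. Without the libraries over 10%, which leaves 1 library at 12 months, 0 of 39 passed, with a median change of 4.77. Leaving out the first or the third 24-month library left 10 passing, and leaving out the third 12-month library left 20. Shares of all genes called in these alternative fits are not given here. A loss of calls in muscle genes therefore cannot be told from a loss over all genes. As a share of protein-coding TPM the muscle genes took 0.298% to 4.68% at 12 months and 8.06% to 13.9% at 24 months, without overlap.

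**Figure D5:**
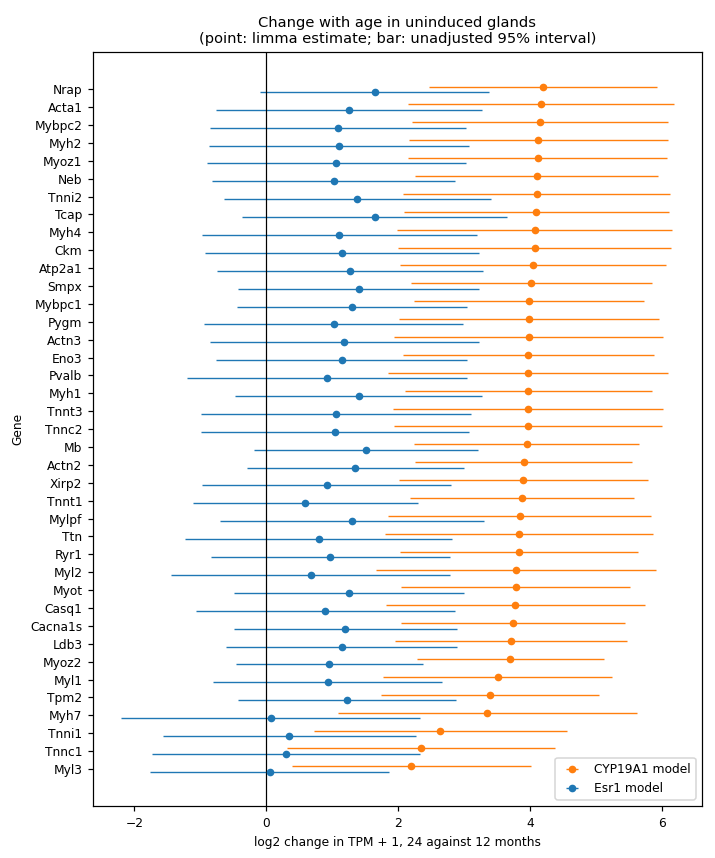
Fitted log2 change in TPM + 1 from 12 to 24 months in uninduced glands (x axis, point and unadjusted 95% interval) for each of the 39 genes (y axis), in the CYP19A1 and the Esr1 model. CYP19A1 estimates run from 2.20 to 4.20 and Esr1 estimates from 0.06 to 1.65.

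In the Esr1 model 0 of 39 genes passed between 12 and 24 months, and 0.574% of all genes were called. At an unadjusted p under 0.05 in limma there were 0 of the 39, against 7.68% of all genes. All 39 estimates were above 0, with a median of 1.10 against -0.08 over all genes. The smallest p belonged to Nrap (1.65, SE 0.86), Mb (1.52, SE 0.84) and Actn2 (1.35, SE 0.81). Acta1 had 2963, 454.4 and 2625 TPM at 12 months and 4079, 7841 and 1521 TPM at 24 months, so the ages overlapped. The median was 0.18 without the second 12-month library and 0.64 to 1.65 when any other was left out. The difference between the models in this change had a median of -2.80. In limma 0 of 39 genes passed, with a smallest adjusted p of 0.766, and 0.0396% of all genes were called. Before adjustment 28 of 39 were under 0.05, against 6.49% of all genes. Acta1 differed by -2.91 (SE 1.41, 95% interval -5.77 to -0.05, limma adjusted p = 0.766). Myoz2 (-2.75), Tnnt1 (-3.29) and Neb (-3.08) had the smallest p. A difference between the models was therefore not established for any of the 39. Split at 18 months, a division made after the values were seen, 0 of 39 passed in either interval in CYP19A1 glands. From 12 to 18 months the median change was 2.56. There 34 genes had an unadjusted p under 0.05 in limma, against 5.61% of all genes, and 0.0099% of all genes were called. From 18 to 24 months the median was 1.39, with 5 genes unadjusted against 3.64% of all genes, and 0.0693% called. Fitting only the compared groups gave 2 and 3 calls, and the share of all genes called in those fits is not given here. In Esr1 glands the medians were 0.51 (0 of 39, 0 unadjusted, 0%) and 0.61 (0 of 39, 0 unadjusted, 0.336%). Shares of all genes at an unadjusted p under 0.05 in limma were 2.76% and 7.37%.

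Induction for 1 week at 12 months went with lower estimates for all 39 genes in the Esr1 model, yet 0 of 39 passed. At an unadjusted p under 0.05 in limma there were 36, against 5.51% of all genes. Each of the 36 had an adjusted p of 0.754, and 0.0099% of all genes were called. The median change was -2.34 (all genes 0.22). Acta1 had 1247, 79.8 and 220.1 TPM with induction against 2963, 454.4 and 2625 TPM without, and the groups overlapped. The 3 genes with the smallest p were Mybpc1, the slow form of myosin-binding protein C (-2.50, SE 0.86), Myl2 (-3.02, SE 1.05) and Myoz2 (-1.98, SE 0.70). Brown adipocyte markers lay in the same direction: all 9 had negative estimates with a median of -0.99, and 0 passed. Their summed level was 18.3 to 209.1 TPM with induction and 56.8 to 457.2 TPM without. This list is not wholly separate from muscle. Across the 48 libraries Cpt1b, which muscle also expresses, and Ppargc1a had r = 0.913 and 0.759 with the mean of the muscle genes (list median 0.123). The 8 luminal epithelial markers all had positive estimates (median 0.70, 0 passed), with sums of 693.4 to 961.2 TPM against 313.2 to 743.2 TPM. Their part in the result was not tested.

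In CYP19A1 glands the same week at 12 months gave estimates above 0 for all 39 genes (median 0.63, all genes -0.32), and 0 passed. Before adjustment 0 were under 0.05 in limma, against 6.78% of all genes, and 0% of all genes were called. Acta1 had 1609.8 and 1175 TPM in the first and second induced libraries and 48.6 TPM in the third, and without the third the median change was 2.13, while without the first it was -0.23. Other genes moved beside them: all 8 luminal epithelial markers had negative estimates (median -0.88, 0 passed), as did all 13 smooth muscle and myoepithelial markers (median -1.12, 0 passed), and the 3 genes with ribosomal RNA reads had a median of 2.74 (0 passed). Summed luminal levels were 101.3 to 209.9 TPM with induction and 81.8 to 650.2 TPM without, and ribosomal RNA reads took 36.7% to 49.8% of TPM against 67.2%, 0.122% and 22.2%. Their part in the result was not tested. Tnnt1 (0.94), Actn2 (0.88) and Cacna1s (0.86) had the smallest p. Between the models the 1-week response differed by a median of -1.90 (0 of 39, with a smallest adjusted p of 0.548 in limma, 0% of all genes called). At an unadjusted p under 0.05 were 16 of 39, against 6.42% of all genes. The smallest p were those of Actn2 (-2.25), Myh1 (-2.48) and Myoz2 (-1.87). Without the first uninduced CYP19A1 library of 12 months, which has 67.2% of TPM on ribosomal RNA reads, 10 of 39 passed. The share of all genes called in that fit is not given here, so the 10 cannot be set against it.

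At 18 months the uninduced Esr1 libraries had summed fast genes of 3291, 6350.2 and 33319.9 TPM, and those with 1 week of induction 8247, 8753 and 8020.3 TPM, within that range. The 12 fast genes had a median of -0.11 (-0.57 to 0.36) and the 6 slow genes a median of 1.98 (1.15 for Tnnt1 to 2.19 for Myl3), and 0 of 39 passed (2 at an unadjusted p under 0.05, all adjusted p = 1.0 in limma, 0% of all genes called). The unadjusted share over all genes was 1.25%. Myh7 had 46.1, 15.99 and 26.9 TPM with induction and 2.04, 2.08 and 28.1 TPM without, so 1 uninduced library overlapped. Leaving out single libraries gave medians over the 39 genes of -0.67 to 0.94, the lowest without the first uninduced library and the highest without the third, against -0.01 with all of them. The third uninduced library held 5170.2 TPM of Myh4 against 515.5 and 1042 TPM in the other uninduced ones, and Myh4 was 1336, 1467 and 1358 TPM with induction. Myl3, the slow essential light chain, had 25.8, 8.79 and 10.2 TPM with induction and 0.93, 0.99 and 7.11 TPM without (2.19, SE 0.90, adjusted p = 1.0), and its groups did not overlap. Tnnc1, slow troponin C, had 37.7, 10.6 and 20.3 TPM against 1.60, 1.11 and 18.5 TPM (2.16, SE 1.00), and Tnni1 22.9, 7.98 and 13.1 TPM against 1.19, 0.96 and 14.02 TPM (1.85, SE 0.95). Of the developmental and cardiac list, 6 of 7 tested genes had estimates above 0 (median 0.10, 0 passed).

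In CYP19A1 glands at 18 months 1 week of induction gave a median of 0.84 (all 39 above 0, 0 passed, 1 at an unadjusted p under 0.05 in limma, 0% of all genes called). The unadjusted share over all genes was 1.46%. Myl2 had the smallest p (2.16, SE 1.05), with 59.6, 11.3 and 6.18 TPM against 4.19, 4.39 and 1.14 TPM. Its induced libraries were all above the uninduced ones, with 1 of them far ahead. Tnnt1 (1.59, SE 0.84) and Tnni1 (1.74, SE 0.95) came next, so the 3 smallest p belonged to slow genes. Without the first uninduced library the median over the 39 genes turned to -0.17, and leaving out other single libraries gave 0.41 to 1.46.

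No muscle gene passed with long induction. In Esr1 glands at 24 months the median change was -0.02 after 6 months (0 of 39, 0 unadjusted, 0% of all genes called) and -0.19 after 12 months (0 of 39, 0 unadjusted, 0.00495%). In CYP19A1 glands it was 0.25 after 6 months (0 of 39, 0 unadjusted, 0%) and 0.03 after 12 months (0 of 39, 0 unadjusted, 0.0198%). After 6 and 12 months, 1.16% and 1.38% of all genes in Esr1 glands had an unadjusted p under 0.05 in limma. In CYP19A1 glands these shares were 1.29% and 1.13%. Acta1 had 4079, 7841 and 1521 TPM in the uninduced Esr1 glands, 3969, 3034 and 3802 TPM after 6 months and 4743, 1985 and 2488 TPM after 12 months. In CYP19A1 glands it had 5908, 4119 and 6398 TPM without induction, 7896, 4453 and 6699 TPM after 6 months and 5037, 3513 and 6781 TPM after 12 months. These groups overlapped throughout, and the 95% intervals of the change in Acta1 after 12 months, -2.37 to 1.67 in the Esr1 and -2.15 to 1.90 in the CYP19A1 model on the log2 scale, leave room for changes of several fold in either direction. The genes with the smallest p were Myh2, Myl3 and Myoz2 (0.56, 0.50 and 0.38) and then Myl3, Myh7 and Tnni1 (1.16, 0.96 and 0.68) after 6 and 12 months in Esr1 glands. In CYP19A1 glands they were Tcap, Mb and Myl1 (0.50, 0.42 and 0.42) and then Myoz2, Mb and Mybpc1 (0.36, 0.29 and 0.28). The models' long responses differed by a median of -0.20 (0 of 39, 0 unadjusted, 0%), with the smallest p for Myl3 (0.90), Myl1 (-0.63) and Myh7 (0.72). Unadjusted, 1.17% of all genes were under 0.05 in limma.

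Averaged over the 4 inductions with matched controls, the median was -0.60 in the Esr1 model (35 of 39 below 0) and 0.42 in the CYP19A1 model (39 above 0), with 0 of 39 passing, 0 unadjusted and 0% of all genes called in each. Unadjusted, 3.38% of all genes in the Esr1 model and 1.05% in the CYP19A1 model were under 0.05 in limma. Myl1, Smpx and Casq1 (-0.79, -0.81 and -0.82) had the smallest p in the Esr1 model, and Myoz2, Actn2 and Tnnt1 (0.63, 0.61 and 0.62) in the CYP19A1 model. Uninduced glands of the Esr1 model had higher estimates than those of the CYP19A1 model for all 39 genes (median 0.77), but 0 passed (3 unadjusted, Casq1, Myl2 and Actn3, smallest adjusted p = 0.214 in limma, while 2.95% of all genes were called). The unadjusted share over all genes was 17.7%.

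Between 12 months of induction at 24 months and 18 months of induction at 30 months, the Esr1 median was 0.55 (0 of 39, 0 unadjusted, 0.139% of all genes called). Unadjusted, 15.9% of all genes were under 0.05 in limma. Mb, with Myl3, was one of the 2 genes with a negative estimate: it had 569.4, 163.0 and 213.7 TPM at 24 months and 163.0, 143.7 and 30.5 TPM at 30 months (-1.58, SE 0.84, limma adjusted p = 0.331), while Ckm had 4071, 1496 and 2237 TPM against 4545, 5326 and 3211 TPM (0.84, SE 1.02, adjusted p = 0.598). Actn3 (1.19, SE 1.01) and Mybpc2 (0.98, SE 0.96) had the next smallest p. The third 30-month library had 50.3% of TPM on ribosomal RNA reads, and a TPM falls when another RNA takes more of the library. White adipocyte markers were lower in the same comparison: 1 of 9 passed, the median was -1.16 against -0.36 over all tested genes, and their sum was 6694 to 10308 TPM at 24 months and 3220.0 to 6030 TPM at 30 months. Whether the 2 are related was not tested. In CYP19A1 glands the median was 0.10 (0 of 39, 0 unadjusted, 0%), the smallest p belonged to Actn2, Tnnc1 and Smpx (0.56, 0.44 and 0.36), and Mb had 320.0, 326.2 and 731.0 TPM against 421.6, 453.7 and 399.7 TPM. There 1.64% of all genes had an unadjusted p under 0.05 in limma.

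Other genes of muscle were read from lists made by function. Most were called higher at 24 than at 12 months in uninduced CYP19A1 glands, where 4.18% of all tested genes were. The lists here and below were counted in the main fit only. Under median-of-ratios rescaling the count for the 39 fell to 0, and whether the list counts would hold was not tested. Of the other sarcomere and Z-disc genes, 17 of 18 tested were higher (median 3.21); Tpm1, alpha-tropomyosin, had the highest level of the list and rose by 3.04, Des, the intermediate filament desmin, by 3.78 and Cmya5 by 3.98, and Tpm3, made in many cell types, had 0.52 (adjusted p = 0.635). Of the excitation-contraction and calcium genes, 14 of 16 were higher (median 3.11), among them Trdn (triadin, 3.53), Srl (sarcalumenin, 3.32) and Sln (sarcolipin, a small calcium pump regulator, 3.22, adjusted p = 0.00127), while Atp2a2, the calcium pump of slow fibres and of most other cells, had 0.46 (0.60). Of the muscle energy genes, 13 of 16 were higher (median 2.50), with Aldoa (aldolase) at 2.58, Pgam2 at 3.89 and Ldha at 1.39, and Cox7a1, Cox8b and Fabp3 did not pass (1.80, 1.38 and 2.39).

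Several of the membrane, synapse and regulator genes lay near 1 TPM, where the added 1 TPM shrinks the fitted change. In the dystrophin complex list 6 of 9 were higher (median 1.48), Dmd (dystrophin) by 1.73 and Sgca (alpha-sarcoglycan) by 3.34, while Dag1 had 0.36 (adjusted p = 0.622). At the neuromuscular junction 5 of 6 tested genes were higher (median 0.97), Rapsn, which clusters acetylcholine receptors, by 1.66 and Musk, the receptor kinase of the synapse, by 1.66. Of the myogenic regulators, 7 of 9 tested were higher: Mstn (myostatin, a brake on muscle growth) by 4.13, Myf6 by 2.97, Mef2c by 1.92, Myog by 1.67 and Myod1 by 1.43. Satellite cell genes Pax7, Pax3 and Myf5 did not reach the level for testing (at most 0.36 TPM). In the developmental and cardiac list 1 of 7 passed, Myh8, the perinatal myosin (1.66), and Myh3, the embryonic myosin, had at most 1.18 TPM and was not tested. Trim63 (3.35) and Ankrd2 (2.51) were the 2 of 8 atrophy and regeneration genes that were higher.

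Among markers of the gland's other cells 1 gene was called, and a gene that was not called may still have changed. In the same comparison 0 of 13 smooth muscle and myoepithelial genes passed (median 0.01), 0 of 8 luminal genes (-0.59), 0 of 9 white adipocyte genes (0.34), 0 of 9 brown adipocyte genes (-0.43), 0 of 2 salivary gland genes (0.26) and 0 of 3 genes with ribosomal RNA reads (-3.26), and 1 of 5 tendon genes passed, Scx (1.04). Summed luminal levels were 81.8 to 650.2 TPM at 12 months and 143.9 to 270.8 TPM at 24 months. White adipocyte sums were 3307 to 8907 TPM and 5593 to 9805 TPM. Both pairs of ranges overlapped. Over the 48 libraries Cpt1b of the brown adipocyte list (r = 0.913) and Thbs4 of the tendon list (0.864) did go with the mean of the muscle genes. The medians of these 2 lists were 0.123 and -0.247.

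Across the 48 libraries Acta1 followed Ckm, Myh4 and Ttn closely and the slow genes Myh7 and Tnni1 more loosely. On the log2(TPM + 1) scale Pearson's r of Acta1 was 0.993 with Ckm (Spearman's rho 0.985), 0.994 with Myh4 (rho 0.988) and 0.987 with Ttn (rho 0.967), each with a permutation p of 1e-05, the smallest 100000 resamples can give (adjusted p = 2e-05 over 10 relations). Myh7 gave r = 0.648 (rho 0.592) and Tnni1 r = 0.632 (rho 0.621), with the same permutation p for r. Within the 24 libraries of 24 and 30 months these were 0.375 and 0.353 (permutation adjusted p = 0.112 and 0.113) while Ckm, Myh4 and Ttn kept 0.951, 0.969 and 0.920. Without the 2 libraries farthest from the median of Acta1, r was 0.991 for Ckm and Myh4, 0.982 for Ttn, 0.591 for Myh7 and 0.586 for Tnni1.

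Genes of other tissues had weaker or negative relations to Acta1. Ucp1, of brown fat, gave r = 0.102 (permutation adjusted p = 0.549) and rho -0.014 (0.952), and Adipoq r = -0.082 (0.584) and rho -0.009 (0.952). Epcam gave r = -0.386 (permutation adjusted p = 0.0106) and rho -0.504 (0.000617), with r of -0.153 within the 12- and 18-month libraries and -0.632 within the 24- and 30-month ones, and -0.505 without the 2 farthest libraries. Myoepithelial and smooth muscle genes gave r = -0.163 (permutation adjusted p = 0.338) and rho -0.262 (0.0892) for Krt5. For Acta2 r was -0.229 and missed the threshold (0.165), while rho was -0.334 and passed it (permutation adjusted p = 0.0291). TPM of 1 library share a fixed total, so a library with more of any RNA has less of the rest.

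Outside the 39, the 8 named genes whose level was most like the mean log2(TPM + 1) of the muscle genes, by Pearson's r over the 48 libraries, were Cmya5 (0.994), a sarcomere-associated protein, Art1 (0.992), a muscle ADP-ribosyltransferase, Hrc (0.992), a calcium-binding protein of the sarcoplasmic reticulum, Tmem38a (0.991), a potassium channel of that membrane, Cox6a2 (0.991), a muscle subunit of cytochrome oxidase, Eef1a2 (0.991), the elongation factor of muscle and neurons, Ckmt2 (0.989), the mitochondrial creatine kinase, and Pfkm (0.989), muscle phosphofructokinase. Of the 20144 other tested genes 210 had r above 0.9. Of the 39, which make up the mean themselves, 33 did: all 12 fast genes (0.962 to 0.992), none of the 6 slow genes (0.667 to 0.892). In the brown adipocyte list Cpt1b, which muscle also expresses, had r = 0.913, while Ucp1 had 0.098; in the sarcomere list Tpm3 had 0.113.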

How the data were processed

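Total RNA of flash-frozen thoracic mammary glands was depleted of ribosomal RNA and made into stranded libraries, read as 75 bp single ends on an Illumina NextSeq with at least 50 M reads stated, per the labels. The deposited table holds TPM, which the authors made with Trim Galore 0.6.5, STAR 2.7.9a and RSEM 1.3.1 on mm10, with FastQC 0.11.9, per the submitters' processing notes. The annotation release is not given in the sources used here. TPM keep no depth, so counting error could not be set beside a value, and a TPM falls when another RNA takes more of the library. No column was left unused (0), and 0 pairs of libraries were identical.

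From these values log2(TPM + 1) was tested with limma 3.58.1 (R 4.3.3, eBayes with trend, two-sided), with 16 group means over all 48 libraries, on the 20209 rows at 1 TPM or more in at least 3 libraries. The p-values were adjusted by Benjamini-Hochberg over all these rows, and a gene was called under 0.05. Of the 39 genes, 37 were placed with GENCODE M21. Correlations used two-sided permutation tests. The limma step was tested on simulated data. The rule for names was 12 lead genes by library or range, up to 20 called genes or the 3 smallest p in each comparison, the 3 highest and any called genes of each other list (given by example where many passed), and the 8 genes most like the muscle mean. The genes, lists and rules were chosen with earlier results of these data known, so counts over them describe these libraries and are not independent support. Alternatives were the scaling, the pseudocount, the filter, the compared groups alone, a replicate block, single libraries left out, and libraries over 10% ribosomal RNA reads left out. The splits by age at 18 months and the model difference in the age change were added after the data were seen.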

Additional observations from a re-analysis of the deposited data

How the results depend on the processing

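Only 1 comparison had called muscle genes, uninduced CYP19A1 glands of 24 against 12 months (35 of 39, limma), and its count moved most. It was 0 with median-of-ratios rescaling, 18 with rescaling to protein-coding genes and 0 without libraries over 10% ribosomal RNA reads, a setting that leaves 1 library at 12 months; the change kept its sign, with medians of 3.56 to 4.77. It was 39 when only the compared groups were fitted and 37 with a pseudocount of 0.1. Leaving out single libraries gave 10 to 35 calls and medians of 3.43 to 4.73. For the alternative fits the shares of all genes called are not given here. The model difference in the 1-week response had 0 to 10 calls when single libraries were left out (10 without the first uninduced CYP19A1 library of 12 months). Over such fits the sign of the median turned in several comparisons with 0 calls. In CYP19A1 glands it ran from -0.23 to 2.13 for 1 week at 12 months, -0.17 to 1.46 for 1 week at 18 months, -0.21 to 0.22 for 12 months of induction and -0.09 to 0.39 for 30 against 24 months. In Esr1 glands it ran from -0.67 to 0.94 for 1 week at 18 months, -0.51 to 0.42 and -0.75 to 0.29 for 6 and 12 months of induction, and -0.45 to 1.19 and -0.08 to 1.55 for 12 to 18 and 18 to 24 months of age. The model difference in the long response ran from -0.75 to 0.20. In the other planned comparisons every alternative gave 0 calls. The causes were not tested.

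For Acta1, r with Myh7 and Tnni1 was 0.375 and 0.353 within the 24- and 30-month libraries and no longer passed, and r with Epcam was -0.153 within the 12- and 18-month ones. The sign turned for Ucp1 (-0.122 without the 2 farthest libraries) and Adipoq (0.079 within 24 and 30 months), neither of which passed. Taken as deviations from group means, r was -0.304 for Adipoq, -0.406 for Krt5 and -0.516 for Acta2. Each passed a permutation test that treated all deviations as independent. Deviations within a group are tied by their shared mean, so these p-values are too small. Whether these genes pass as deviations was therefore not settled. After rescaling to protein-coding genes, Krt5 (-0.301) and Acta2 (-0.464) passed. The median log2 ratio of slow to fast genes was -7.62 from summed TPM and -5.82 as a difference of mean log2 values. In the added split at 18 months the CYP19A1 medians were 4.57 and 0.26 without the libraries rich in ribosomal RNA reads.

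Replicate numbers did not pair the libraries: same-numbered libraries of different groups had a median correlation of deviations of 0.008 (-0.496 to 0.400), other-numbered ones -0.010. With the replicate block 35 of 39 genes passed in CYP19A1 glands of 24 against 12 months, and no other comparison gained or lost a call.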
